A study of Mus musculus with 8 samples.

Results

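The cholecystokinin (CCK) and tachykinin genes studied here were the peptide precursors Cck, Tac1 and Tac2 and the receptors Cckbr, Tacr1 and Tacr3. They were taken by gene name, and all 6 were found among the 34620 gene names of the series. RNA was sequenced from the hippocampus (4 libraries) and the pre-frontal cortex (PFC, 4 libraries) of untreated C57Bl6 male mice, 7 to 9 weeks old by the sample labels. The methods name the substrain C57BL/6J, and their passage on RNA preparation gives an age range that reaches higher than that of the labels. Each library came from the pooled tissue of 2 mice, 8 mice in all, so that p-values measure the spread between pools. The 2 regions thus shared mice, and the comparison of regions did not pair their libraries. No transgene or agent entered the comparison, which was between the 2 regions. Values are normalized counts, that is, reads per gene name divided by the size factor of the library.

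CCK is among the most abundant neuropeptides of the cerebral cortex and hippocampus, where it is made by a class of inhibitory basket cells and, at the RNA level, also by many excitatory projection neurons. Its main receptor in the brain is the G protein-coupled receptor encoded by Cckbr. Tac1 encodes the precursor of substance P and neurokinin A, and in the mouse Tac2 encodes the precursor of neurokinin B. Substance P prefers the receptor encoded by Tacr1 and neurokinin B the one encoded by Tacr3. All these receptors act mainly through Gq proteins and the release of calcium from internal stores.

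The libraries held between 3164964 (hippocampus replicate 4) and 16636500 reads (hippocampus replicate 1) assigned to genes. A count of 0 allows up to 3 reads, or 1.30 to 6.93 normalized counts depending on the library, and this limit covers counting error only. The 9 hippocampal neuron markers examined were all higher in the hippocampus at an adjusted p under 0.05 from limma, against 2.55% of all genes tested. Their summed level was 15967 to 19861 normalized counts in the hippocampus libraries, against 3857 to 9412 in the PFC libraries. Zbtb20, Prox1 and Cpne7 made up most of that sum. Of 11 cortical neuron markers, among them Mef2c, Lmo4 and Rorb, 9 were higher in the PFC at that threshold, against 3.13% of all genes tested. The PFC libraries were graded, with the hippocampal marker sum at 9412 and 8624 in PFC replicates 1 and 2 and at 5587 and 3857 in PFC replicates 3 and 4. Hippocampus replicate 2 stood apart from the other hippocampus libraries. Its squared deviations from them were 17.2 to 37.0 times the counting noise per gene, against 2.89 to 14.4 times among the other 3. This multiple also grows with the reads of a pair, so that pairs of unlike depth are not compared on equal terms.

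In the comparison of regions, 5.68% of the 19789 genes tested passed an adjusted p of 0.05 from limma, 2.55% being higher in the hippocampus and 3.13% higher in the PFC. All 6 CCK and tachykinin genes entered the test. Cck, Cckbr and Tac1 passed, all lower in the hippocampus than in the PFC, while Tac2, Tacr1 and Tacr3 did not pass. The ranges of the regions did not overlap in 4 of the 6 genes, which were the same 3 and Tacr3, against 11.8% of all genes tested. Tacr3 was the only gene of the 6 with a positive log2 fold change, which stands for a higher level in the hippocampus. Over all genes tested the median log2 fold change was 0.0038.

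**Figure D1:**
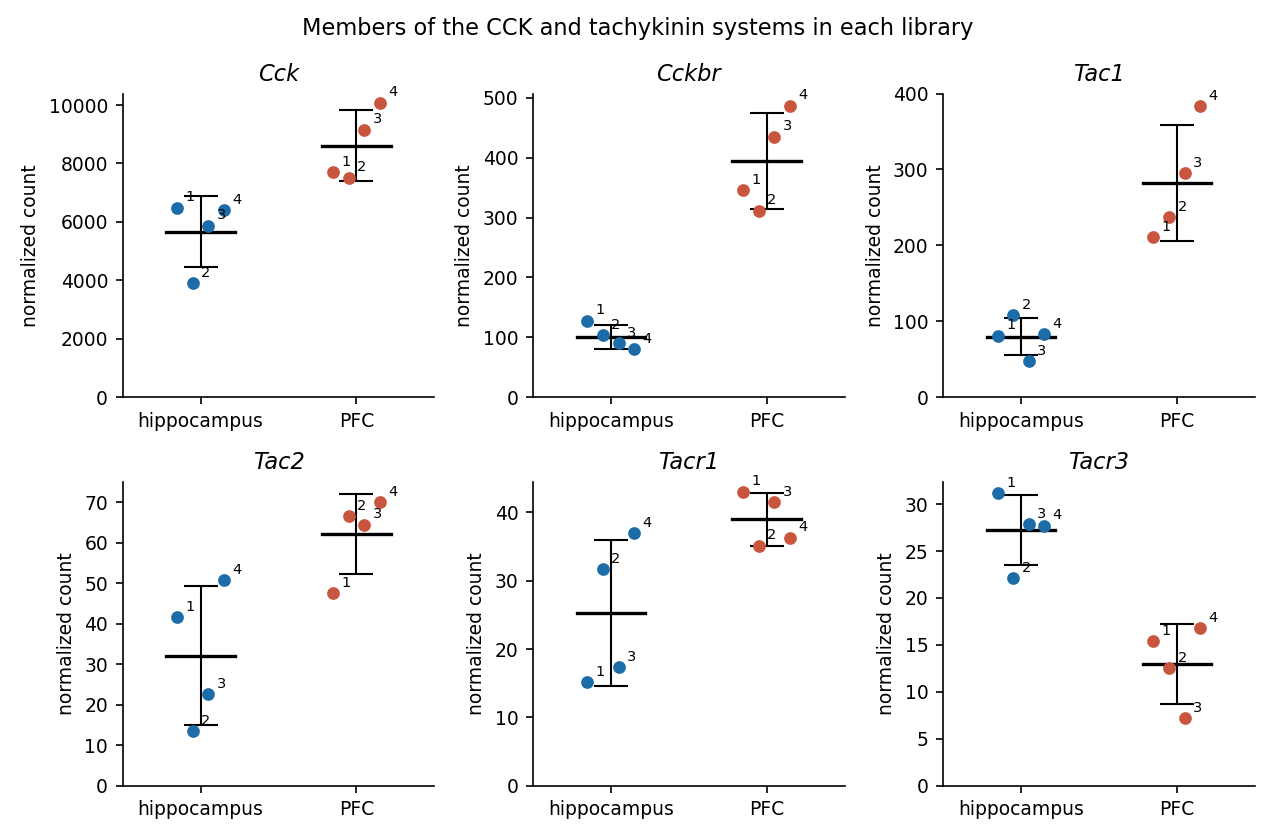
Normalized counts of the 6 genes in the 4 hippocampus and 4 PFC libraries. Points are libraries with their replicate number, horizontal lines are means and bars are SD. For Cck, Cckbr and Tac1 each hippocampus library lay below each PFC library, and for Tacr3 each lay above.

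The CCK precursor Cck had 6493, 3900, 5870 and 6397 normalized counts in hippocampus replicates 1 to 4. In PFC replicates 1 to 4 it had 7698, 7514, 9162 and 10087 normalized counts. The lowest PFC library thus lay above the highest hippocampus library, and hippocampus replicate 2 was the lowest of all. The means were 5665 ± 1208 in the hippocampus, against 8615 ± 1227 in the PFC (SD, n = 4 each), with a log2 fold change of -0.62 (SE 0.15, adjusted p = 0.019 from limma). The call of Cck was lost without PFC replicate 3 (adjusted p = 0.087 from limma), without PFC replicate 4 (adjusted p = 0.096) and without a filter on low counts (adjusted p = 0.052). Without hippocampus replicate 2 the log2 fold change shrank to -0.45 while the call held (adjusted p = 0.0019 from limma). In a tissue RNA pool, fewer cells of a type and less RNA per cell cannot be told apart, here and for the genes below.

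Per kb of annotated exons, which allows levels of different genes to be compared, Cck ranked 18 in the hippocampus, against 8 in the PFC among 19567 tested genes with an annotated length. It had 6680 ± 1425 normalized counts per kb in the hippocampus, against 10160 ± 1447 in the PFC (SD, n = 4 each). No other gene of the 6 came near this level. Tac1 was next with 77.3 ± 23.8 per kb in the hippocampus, against 272 ± 73.9 in the PFC.

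Cckbr, the receptor through which CCK acts on most forebrain neurons, was the gene of the 6 with the most negative log2 fold change. It had 128, 104, 90.3 and 80.9 normalized counts in hippocampus replicates 1 to 4. In PFC replicates 1 to 4 it had 346, 311, 435 and 487. The groups were far apart, the lowest PFC library at 311 lying well above the highest hippocampus library at 128. The means were 101 ± 20.3 in the hippocampus, against 395 ± 80.6 in the PFC (SD, n = 4 each), the hippocampus mean being 0.255 times that of the PFC. The log2 fold change was -1.96 (SE 0.17, adjusted p = 7.1e-06 from limma), and Cckbr passed under all 19 alternatives tried (adjusted p up to 0.00022 from limma). The hippocampus values rest on 35 to 295 reads per library and the PFC values on 225 to 724.

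Tac1, the precursor of substance P and neurokinin A, was also lower in the hippocampus. Its normalized counts were 80.9, 108, 47.8 and 83.2 in hippocampus replicates 1 to 4. They were 211, 237, 295 and 383 in PFC replicates 1 to 4. Again no hippocampus library reached the lowest PFC library, and PFC replicate 4 stood highest. The means were 79.9 ± 24.6 in the hippocampus, against 282 ± 76.5 in the PFC (SD, n = 4 each), with a log2 fold change of -1.82 (SE 0.23, adjusted p = 0.00014 from limma). Tac1 also passed under all 19 alternatives (adjusted p up to 0.0022 from limma).

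Tac2, the neurokinin B precursor, had a mean of 32.1 ± 17.1 normalized counts in the hippocampus, against 62.1 ± 9.93 in the PFC (SD, n = 4 each). It had 41.5, 13.5, 22.6 and 50.8 normalized counts in hippocampus replicates 1 to 4, with only 14 reads in replicate 2. In PFC replicates 1 to 4 it had 47.6, 66.5, 64.5 and 69.9. Hippocampus replicate 4 lay above PFC replicate 1, so that the groups overlapped by that pair alone. The log2 fold change was -1.09 (SE 0.34) and did not pass (adjusted p = 0.078 from limma, unadjusted p = 0.0054). It passed with DESeq2 (adjusted p = 0.032), with array weights in limma (adjusted p = 0.027) and when hippocampus replicate 4 was left out (adjusted p = 0.026 from limma). Over all alternatives the adjusted p of Tac2 lay between 0.026 and 0.24.

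The tachykinin receptors were rare transcripts, their log2 fold changes had opposite signs, and neither passed. Tacr1, the substance P receptor, had 15.1, 31.8, 17.3 and 37.0 normalized counts in hippocampus replicates 1 to 4. In PFC replicates 1 to 4 it had 43.0, 35.2, 41.5 and 36.3. Hippocampus replicates 1 and 3 were low, whereas replicates 2 and 4 came close to or into the PFC range. Its log2 fold change of -0.69 (SE 0.31) did not pass (adjusted p = 0.25 from limma), except with array weights (adjusted p = 0.0093).

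Tacr3, the neurokinin B receptor, had 31.2, 22.1, 27.8 and 27.7 normalized counts in hippocampus replicates 1 to 4. In PFC replicates 1 to 4 it had 15.4, 12.6, 7.16 and 16.8. The groups did not overlap, and the hippocampus mean of 27.2 ± 3.74 was 2.10 times the PFC mean of 12.97 ± 4.26 (SD, n = 4 each). The log2 fold change of 1.06 (SE 0.33) nevertheless missed the threshold (adjusted p = 0.078 from limma, unadjusted p = 0.0055). Tacr3 passed once hippocampus replicate 2 was left out (adjusted p = 0.041 from limma) and with array weights (adjusted p = 0.0089). The PFC values rest on 5 to 25 reads per library. Exact Poisson 95% intervals in PFC replicates 1 to 4 were 7.37 to 28.3, 6.02 to 23.1, 2.33 to 16.7 and 10.9 to 24.8. These intervals, in normalized counts, cover counting error only. Each reached into the interval of hippocampus replicate 2 (14.0 to 33.2), and those of PFC replicates 1, 2 and 4 held its value of 22.1.

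**Figure D2:**
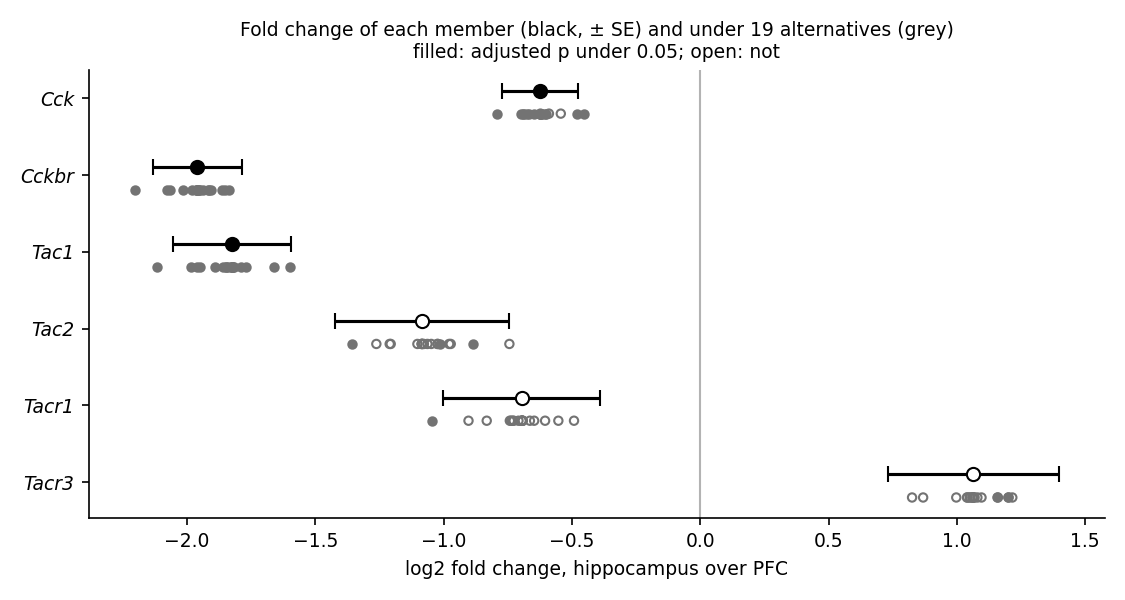
Log2 fold change of each of the 6 genes, hippocampus over PFC, from limma on all 8 libraries (black, bars are SE) and under 19 alternative settings (grey). Filled symbols passed an adjusted p of 0.05, open symbols did not. Cckbr and Tac1 passed in every setting, and no gene changed sign in any.

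The order of the levels per kb differed between the regions. In the hippocampus Cck was followed by Tac1 at 77.3 ± 23.8, Tac2 at 47.2 ± 25.2, Cckbr at 36.3 ± 7.32, Tacr3 at 7.23 ± 0.99 and Tacr1 at 3.91 ± 1.65 normalized counts per kb (SD, n = 4 each). The ranges of Tac1 and Tac2 overlapped there, as did those of Tac2 and Cckbr, and the other neighbours were separate. In the PFC Cck was followed by Tac1 at 272 ± 73.9, Cckbr at 142 ± 29.0, Tac2 at 91.4 ± 14.6, Tacr1 at 6.03 ± 0.60 and Tacr3 at 3.45 ± 1.13, and no neighbouring ranges overlapped.

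Per kb, the order of the tachykinin receptors was thus reversed. The ratio of Tacr1 to Tacr3 per kb was 0.28, 0.83, 0.36 and 0.78 in hippocampus replicates 1 to 4, and 1.63, 1.63, 3.37 and 1.26 in PFC replicates 1 to 4. Every hippocampus library held more Tacr3 than Tacr1 per kb and every PFC library more Tacr1 than Tacr3. Some of these values rest on few reads. Hippocampus replicate 4 had 16 reads of Tacr1 and 12 of Tacr3, and PFC replicate 3 had 5 of Tacr3. The order within each library was read without regard to counting error, and neither gene passed the comparison of regions. This order rests on the annotated exon lengths of 6475 bases for Tacr1 and 3764 for Tacr3, and without them hippocampus replicates 2 and 4 held more normalized counts of Tacr1 than of Tacr3. These ratios and those that follow are descriptions without a test, and the length of each gene is a constant in them, so that it does not bear on the contrast between regions.

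In the CCK system the ratio of precursor to receptor was higher in every hippocampus library than in any PFC library. The ratio of Cck to Cckbr per kb was 166, 123, 213 and 259 in hippocampus replicates 1 to 4, and 72.9, 79.0, 68.9 and 67.8 in PFC replicates 1 to 4. The mean was 190 ± 58.7 in the hippocampus, against 72.1 ± 5.06 in the PFC (SD, n = 4 each), without overlap. For neurokinin B the contrast ran the other way. The ratio of Tac2 to Tacr3 was 6.35 ± 3.05 in the hippocampus (3.37 to 10.2) and 29.8 ± 14.2 in the PFC (17.2 to 49.8). Neither Tac2 nor Tacr3 passed the comparison of regions. The highest of these ratios, in PFC replicate 3, rests on 5 reads of Tacr3. The lowest, in hippocampus replicate 2, rests on 14 reads of Tac2. For substance P the ratio of Tac1 to Tacr1 was 21.5 ± 8.48 in the hippocampus, against 45.9 ± 14.8 in the PFC, and hippocampus replicate 1 (33.5) lay above PFC replicate 1 (30.6).

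**Figure D3:**
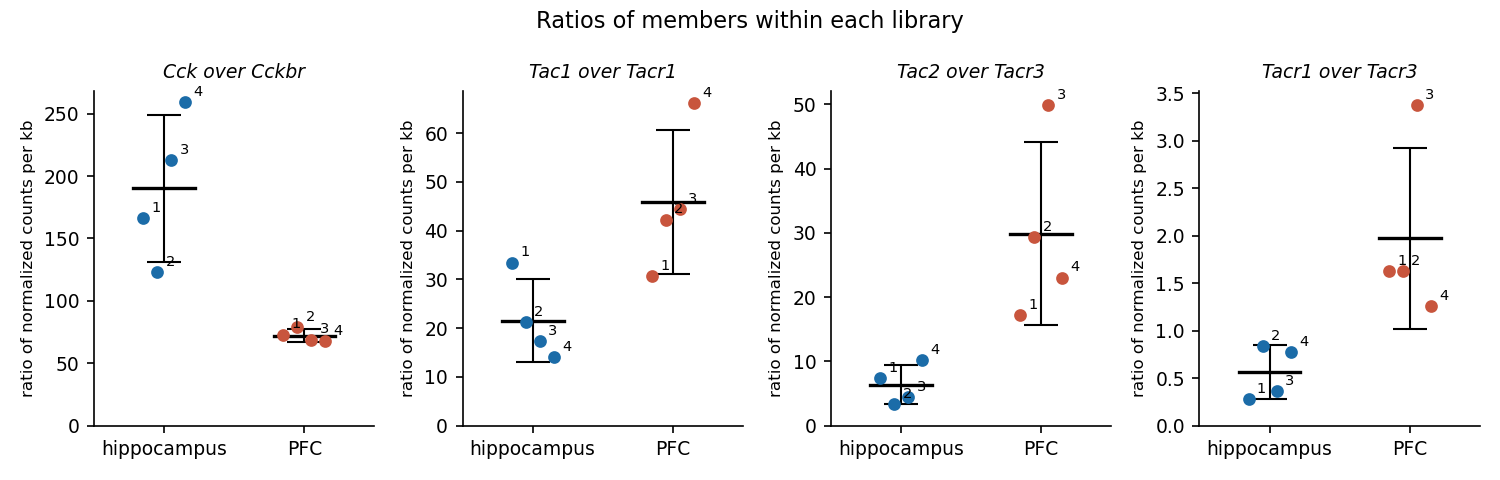
Ratios of normalized counts per kb of exon within each library, for precursor over receptor and for Tacr1 over Tacr3. Points are libraries with their replicate number, lines are means and bars are SD (n = 4 per region). The regions did not overlap for Cck over Cckbr, Tac2 over Tacr3 and Tacr1 over Tacr3.

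Other genes of these families were at or near the limit of detection. Cckar, the CCK receptor best known from the gut, had no read in any library. Tac4, the hemokinin precursor, had 7 reads over the 4 hippocampus libraries and 8 over the 4 PFC libraries, and Tacr2, the neurokinin A receptor, had 9 over the hippocampus libraries and 6 over the PFC libraries. Neither Tac4 (adjusted p = 0.68 from limma) nor Tacr2 (adjusted p = 0.92) passed, and at this depth a difference in either was not detectable.

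The upstream regions of the genes were searched for TGACG, the core of the binding site of cAMP-responsive factors, because the precursor genes Cck and Tac1 are known to be activated through such sites. The letters were sought on both strands (TGACG or CGTCA) in the 250 bases before the RefSeq start site of each of the 6 genes. They occurred in 4 of the 6, against 17.8% of 32851 RefSeq promoters, and in 3 of the 6 within the last 120 bases, against 11.7%. As the motif was chosen for what is known of Cck and Tac1, their matches were expected from that choice and the shares of all promoters are given as a description only. The 3 with a match in the last 120 bases were Cck, Tac1 and Tacr3, of which the first pair was lower in the hippocampus and Tacr3 had the opposite sign. Their last 120 bases before the start are shown with those of Cckbr, which lacked the motif, from RefSeq on build GRCm38.p6, with the motif in capitals. The windows are chr9:121495695-121495814 on the minus strand for Cck, and chr6:7554941-7555060 for Tac1, chr3:134828887-134829006 for Tacr3 and chr7:105425611-105425730 for Cckbr on the plus strand.
Cck: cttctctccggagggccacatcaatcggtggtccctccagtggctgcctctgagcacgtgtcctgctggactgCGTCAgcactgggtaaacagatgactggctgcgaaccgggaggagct
Tac1: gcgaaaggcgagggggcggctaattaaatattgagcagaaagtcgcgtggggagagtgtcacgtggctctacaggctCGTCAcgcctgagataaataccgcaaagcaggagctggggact
Tacr3: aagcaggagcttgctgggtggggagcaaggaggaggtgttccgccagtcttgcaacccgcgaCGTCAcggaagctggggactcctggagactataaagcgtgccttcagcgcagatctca
Cckbr: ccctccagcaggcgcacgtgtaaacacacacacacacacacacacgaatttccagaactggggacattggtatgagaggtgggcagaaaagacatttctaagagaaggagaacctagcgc

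Every motif shown reads as CGTCA on the strand of the gene. Its first base stands 47 bases before the start in Cck, 43 in Tac1 and 58 in Tacr3. Tac1 held another 197 bases before the start and Tacr1 held 1 at 226, both outside the stretches shown. A match of these letters is not evidence that a factor was bound, and its absence in Cckbr and Tac2 concerns these windows only.

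On the build used for counting, NCBIM37, the 6 genes do not share exon bases with any other annotated gene. Cck lies on chromosome 9 from 121398943 to 121404807 and Cckbr on chromosome 7 from 112574331 to 112619412. Tac1 lies on chromosome 6 from 7505071 to 7512973 and Tacr1 on the same chromosome from 82352328 to 82510097. Tac2 lies on chromosome 10 from 127162448 to 127168823 and Tacr3 on chromosome 3 from 134491971 to 134597545. Reads were counted without regard to strand, which matters for genes that share exons and thus not for these by the annotation.

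Within the PFC, the libraries with the most Cck, Cckbr and Tac1 were those with the lowest summed normalized counts of hippocampal and oligodendrocyte markers. PFC replicates 3 and 4 held the highest values of all 3 genes. The 6 oligodendrocyte markers, among them Mbp and Mobp, summed to 107220 to 114752 normalized counts in the hippocampus, against 76225, 74107, 54696 and 52164 in PFC replicates 1 to 4. All 6 passed as higher in the hippocampus, against 2.55% of all genes tested. The 10 choroid plexus markers, led by Ttr, summed to 3494 to 7951 in the hippocampus and to 2407, 2997, 1026 and 550 in PFC replicates 1 to 4. Of these markers, 8 passed as higher in the hippocampus, against the same 2.55%. The part of this grading of the tissue in the differences of Cck, Cckbr and Tac1 was not tested. Without both PFC replicates 1 and 2, a setting chosen after seeing the data, the log2 fold changes were -0.79 for Cck, -2.20 for Cckbr and -2.12 for Tac1, and all 3 passed (adjusted p = 0.027, 6.0e-05 and 0.00057 from limma). As these are the lowest PFC libraries in all 3 genes, larger differences follow from leaving them out, and the values do not bear on the grading.

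Striatal projection neurons are a major source of Tac1 RNA in the forebrain, and their markers were counted for this reason. Of 13 such genes tested, 12 were lower in the hippocampus than in the PFC, against 3.13% of all genes. Their sum was 2038 to 2348 normalized counts in the hippocampus, against 3480, 4343, 4565 and 6557 in PFC replicates 1 to 4. Among the markers with the highest means, Pde10a had 852 ± 31.1 in the hippocampus, against 1279 ± 322 in the PFC, while Penk had 175 ± 32.2 in the hippocampus, against 747 ± 190 in the PFC (SD, n = 4 each). PFC replicate 4 was highest and PFC replicate 1 lowest in this sum, as in Tac1. Of 6 olfactory bulb markers, 4 were lower in the hippocampus, against 3.13% of all genes. Among them were Cdhr1 (log2 fold change -1.06), Doc2g (-2.28) and Th (-2.68), while Eomes (-0.33) and Tbx21 (-1.10) did not pass. The 6 summed to 141 to 200 normalized counts in the hippocampus, against 360, 369, 486 and 523 in PFC replicates 1 to 4. This is the order of the PFC libraries in Tac1, but it was not particular to these markers. The hippocampal and oligodendrocyte sums ran in the reverse order. The cortical markers Cux2 and Stard8 rose in the same order as Tac1, while the sum of the cortical list did not. The part of striatal or olfactory bulb tissue in the Tac1 difference was not tested. Markers of the habenula, a further site of tachykinin precursor RNA, summed to 31.0 to 64.7 normalized counts in the hippocampus and 27.2 to 46.1 in the PFC, and none of the 4 tested passed while Irx2 had no read. The 2 hypothalamic markers that could be tested did not pass either, and the 7 listed summed to 11.6 to 22.9 normalized counts in the hippocampus, against 21.5 to 34.3 in the PFC.

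**Figure D4:**
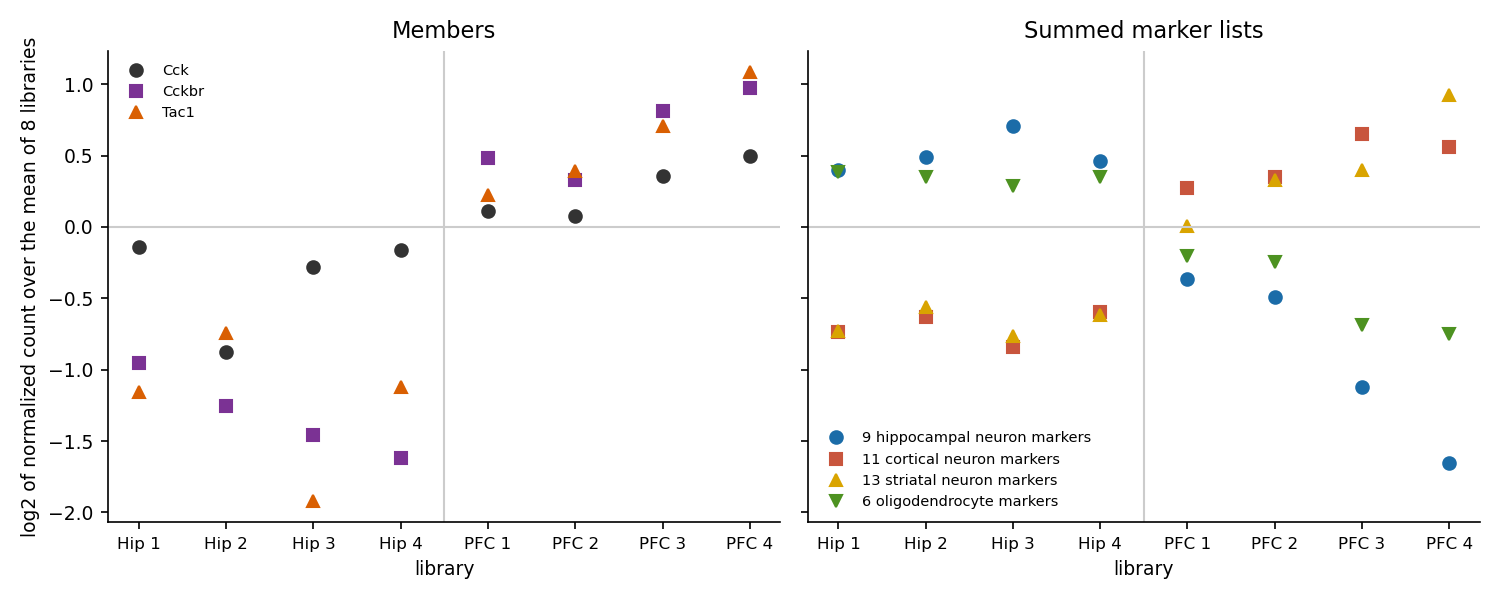
Left, Cck, Cckbr and Tac1 in each library as the log2 of the normalized count over the mean of the 8 libraries. Right, the summed normalized counts of 4 marker lists on the same scale. PFC replicate 4 held the highest Cck, Cckbr, Tac1 and striatal sum and the lowest hippocampal and oligodendrocyte sums among the PFC libraries.

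Markers of the neurons that make these peptides were read against the 5.68% of all genes tested that passed. Of 7 general markers of GABAergic neurons none passed, with a median log2 fold change of -0.42, and their sum was 3472 to 3943 normalized counts in the hippocampus, against 4037 to 4746 in the PFC. Gad2 had 1703 normalized counts in the hippocampus, against 2260 in the PFC, Gad1 had 1296 in the hippocampus, against 1403, and Dlx1 had 296 in the hippocampus, against 337. Of 7 markers of CCK basket cells and related interneurons, 1 passed. It was Vip, lower in the hippocampus with 84.4 ± 19.4 normalized counts, against 166 ± 21.6 in the PFC (SD, n = 4 each), a log2 fold change of -0.98 (adjusted p = 0.0036 from limma). The cannabinoid receptor gene Cnr1, which marks CCK basket cells, had 2741, 2046, 2560 and 2945 normalized counts in the hippocampus replicates, overlapping the PFC libraries, and did not pass. Of 7 markers of interneurons that make tachykinins or their receptors, Nos1 was higher in the hippocampus (log2 fold change 0.47) and Npy and Vip were lower (-1.06 and -0.98), and Sst was among the other 4. Of 4 general markers of glutamatergic neurons, Neurod6 passed, with 1526 ± 195 normalized counts in the hippocampus, against 912 ± 236 in the PFC (SD, n = 4 each, log2 fold change 0.77, adjusted p = 0.0071 from limma), the opposite sign to Cck. The other 3, among them Camk2a (0.31) and Slc17a7 (-0.29), did not pass, and the median log2 fold change of the 4 was 0.40.

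Among the genes that process and secrete neuropeptides, 3 of 17 passed and all were lower in the hippocampus, against 3.13% of all genes tested that were lower there. Their median log2 fold change was -0.17. Pcsk2, a proprotein convertase that cuts precursors including pro-CCK, had 2232 ± 151 normalized counts in the hippocampus, against 3360 ± 218 in the PFC (SD, n = 4 each, log2 fold change -0.59, adjusted p = 0.0011 from limma). Pcsk1, a related convertase, and Ptprn, a dense-core vesicle protein, had log2 fold changes of -0.55 and -0.49. Carboxypeptidase E (log2 fold change 0.33), the amidating enzyme Pam (-0.30) and the enzymes that sulfate CCK, Tpst1 (0.31) and Tpst2 (-0.10), did not pass.

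Of 12 peptidases, 2 passed, against 5.68% of all genes tested, and both were lower in the hippocampus. The neprilysin gene Mme, whose product cleaves substance P and CCK, had 57.7 ± 13.6 normalized counts in the hippocampus, against 95.3 ± 6.18 in the PFC (SD, n = 4 each, log2 fold change -0.75, adjusted p = 0.043 from limma). Dpp4, a dipeptidyl peptidase able to trim substance P, had a log2 fold change of -0.96 (adjusted p = 0.015 from limma).

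Of 20 genes of Gq signalling and receptor desensitization, 6 passed, 4 lower and 2 higher in the hippocampus, against 3.13% and 2.55% of all genes tested. The median log2 fold change was -0.058. Rgs4, which shortens Gq signals, had 1654 ± 187 normalized counts in the hippocampus, against 4039 ± 756 in the PFC (SD, n = 4 each, log2 fold change -1.28, adjusted p = 1.8e-05 from limma). Plcb4, a phospholipase C that Gq activates, had a log2 fold change of -1.18 and the receptor kinase gene Grk5 one of -0.79. Prkcd, a protein kinase C that also marks thalamic neurons, was higher in the hippocampus (0.67). The other 2 were Arrb1 (-0.38) and the calcium channel gene Itpr2 (0.44), named after their values were seen.

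Other neuropeptide precursors were set beside Cck, Tac1 and Tac2. Of 16, 7 were lower in the hippocampus, against 3.13% of all genes tested, and 1 was higher, against 2.55%. Their median log2 fold change was -1.06. Trh (-2.82), Penk (-2.07), Cartpt (-1.86) and Pdyn (-1.67), the precursors of thyrotropin-releasing hormone, enkephalins, the CART peptides and dynorphins, had the largest changes by log2 fold, Trh from low counts (2.79 ± 2.40 in the hippocampus, against 23.4 ± 12.7 in the PFC). The gene higher in the hippocampus was Grp, the gastrin-releasing peptide precursor, named after its value was seen, with 218 ± 47.0 normalized counts in the hippocampus, against 91.9 ± 12.9 in the PFC (SD, n = 4 each). Penk and Pdyn are also expressed by striatal neurons.

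**Figure D5:**
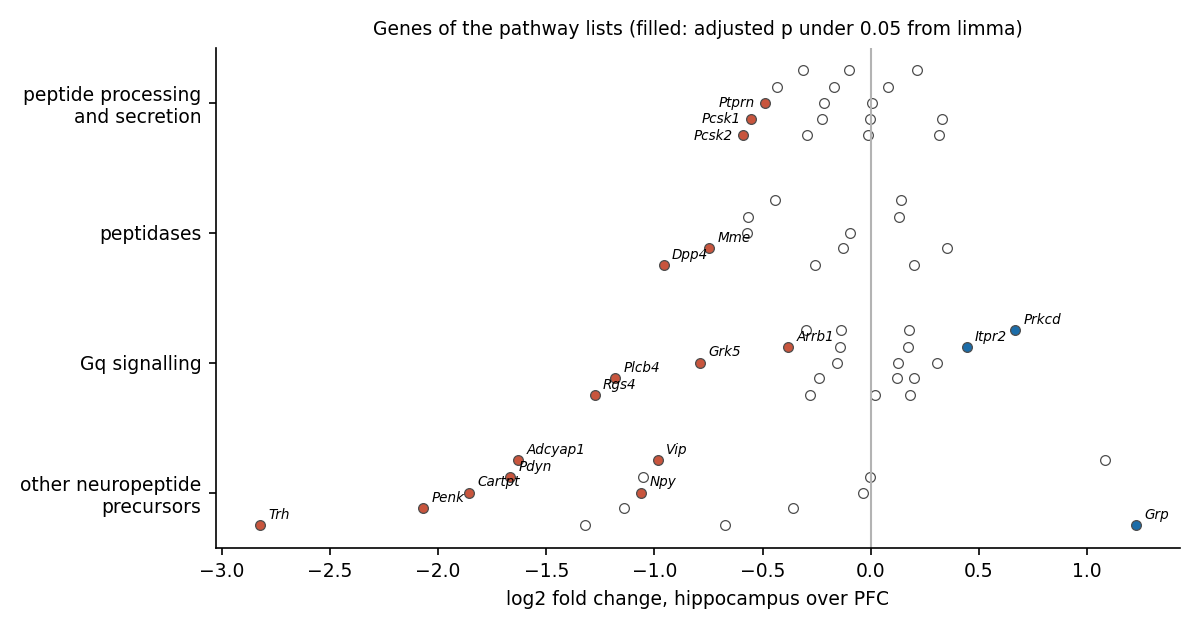
Log2 fold change, hippocampus over PFC, of each tested gene of 4 lists. Filled points passed an adjusted p of 0.05 from limma and carry the gene name, blue being higher and red lower in the hippocampus. Of 16 other neuropeptide precursors 7 were lower and 1, Grp, was higher.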

How the data were processed

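Hippocampus and PFC libraries (4 per region) were sequenced on an Illumina Genome Analyzer IIx with reads of 75 bases after ribosomal RNA removal and amplification. After trimming (Phred 28), the authors aligned reads to NCBIM37 using TopHat2 2.0.9. HTSeq 0.6.0 gave unstranded counts for each gene name, which the authors scaled using DESeq (version not given in the sources used here). The deposited values are a signal per gene, the reads divided by the size factor of each library. Reads were recovered by multiplying with that factor, after which 100% of values lay within 1e-06 of an integer.

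Regions were compared with limma 3.58.1 (variance trend, two-sided) on log2(normalized count + 1) over 19789 genes with a mean of at least 1, with Benjamini-Hochberg adjustment over these genes and a threshold of 0.05. A positive log2 fold change means higher in the hippocampus, and the pseudocount understates the change of low genes. On the recovered reads edgeR 4.0.16 (quasi-likelihood) called 1170 genes and DESeq2 1.42.0 called 1463, against 1124 with limma. Other alternatives were TMM scaling, quantile normalization, pseudocounts of 0.5 and 5, no filter or a mean of at least 10, array weights and a replicate block. Each library was also left out in turn, and both PFC replicates 1 and 2 together, the last chosen after seeing the data. Fits were tested on simulated data. R was 4.3.3 and Python 3.11.15.

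Exon lengths and places came from GENCODE M1 (NCBIM37), and promoters, found for 6 of 6 genes, from RefSeq (GRCm38.p6). Syndig1l of the gene lists was not found under this name. The 6 genes and the lists were chosen with earlier results of these data known. Named genes were the 6, of each pathway list up to 4 called genes with the largest fold change, of each marker list up to 3 with the highest mean, and for each of the 6 the 2 genes (mean of at least 50) with the highest Pearson correlation. Some items are not reported here. Replicates of a region deviated from each other by at least 2.89 times the counting noise, so none was counted as a repeat.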

Additional observations from a re-analysis of the deposited data

Results flagged for a closer look

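In none of the 12 sets of 4 libraries (6 genes in 2 regions) did the highest or lowest library stand apart by Dixon's criterion for 4 values.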

How the results depend on the processing

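Cckbr and Tac1 kept their call and direction under all 19 alternatives, and no log2 fold change of the 6 genes changed sign. The 19 include the setting without both PFC replicates 1 and 2, chosen after seeing the data. It leaves out the lowest PFC libraries of Cckbr and Tac1. Leaving out each replicate in turn, the genes called numbered 575 (without PFC replicate 3) to 2224 (without hippocampus replicate 2), and they numbered 733, 668 and 578 without hippocampus replicate 1, hippocampus replicate 3 and PFC replicate 4. The log2 fold change ran from -0.70 to -0.45 for Cck, whose call was lost without PFC replicate 3 or 4, from -1.36 to -0.74 for Tac2 and from 0.83 to 1.20 for Tacr3. Without a filter on low counts Cck did not pass (-0.62). Tac2 passed with DESeq2 (-1.015) and array weights (-0.89), and array weights also gave calls for Tacr1 (-1.05) and Tacr3 (1.20) and 2441 genes in all. With a replicate block 729 genes were called, and no call among the 6 genes changed. Although the regions shared mice, whether a replicate number marks the same mice in both is not stated. The deviations of equally numbered libraries correlated at -0.25, -0.18, -0.03 and 0.05. The causes were not tested. The fewest reads behind a value were 14 for Tac2, 16 for Tacr1 and 5 for Tacr3.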

Other observations

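The genes whose levels followed each of the 6 most closely are given by Pearson's r of log2(normalized count + 1) over the 8 libraries, among 10745 or 10746 genes with a mean of at least 50. The libraries share the split into regions, depth and tissue composition, and the values are descriptions. For Cck they were Wnt9a, a Wnt ligand (r = 0.99), and 2510006D16Rik (0.99). For Cckbr they were Tmem132d (0.99) and Mina (0.99), and for Tac1 the gene given is Myl4, a myosin light chain (0.99). For Tac2 they were Wdr17 (0.996) and Gm15502 (0.98), for Tacr1 they were Hn1 (0.97) and Cbln1, a synaptic organizer (0.97), and for Tacr3 they were Unc5b, a netrin receptor (0.98), and Camk2b, a calmodulin-dependent kinase (0.98).

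With the region means taken out, these genes still had correlations of 0.98 and 0.97 for Cck, 0.87 and 0.85 for Cckbr, 0.93 for Tac1, 0.996 and 0.96 for Tac2, 0.95 and 0.95 for Tacr1 and 0.93 and 0.91 for Tacr3. They were picked as the highest among all genes compared, so high values are selected for. Myl4 had 26.4 ± 10.6 normalized counts in the hippocampus, against 166 ± 56.3 in the PFC (SD, n = 4 each, log2 fold change -2.65, adjusted p = 6.4e-05 from limma). Tmem132d had 126 ± 15.5 in the hippocampus, against 304 ± 49.2 in the PFC (log2 fold change -1.26, adjusted p = 8.0e-05 from limma). Wdr17 and Tac2 shared their lowest library, hippocampus replicate 2.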
